A study of Rattus norvegicus with 18 samples.

Results

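Oligodendrocyte progenitor cells (OPCs) of aged and of neonate rats were compared after growth on a soft hydrogel. The comparison rests on 6 of the 18 libraries of the study, 3 of aged and 3 of neonate cells, and it was made across all genes. Members were taken by label, and no measured value chose them. In both groups the OPCs had been sorted with magnetic beads (MACS), kept with the growth factors FGF and PDGF, and grown on hydrogels coated with laminin, a protein of the extracellular matrix. The other 12 libraries, used here for side-by-side values and for 1 shared estimate of the spread, are aged and neonate cells on a stiff hydrogel, and aged and neonate primary cells that the labels describe only as MACS-sorted. The age of the primary cells is given by a letter in the title alone. The labels give the stiffness of the gels only as soft or stiff and the ages only as aged or neonate, and nothing in them says whether a group of 3 libraries stems from 3 animals. The p-values therefore measure only the spread between libraries, which may be technical.

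OPCs are dividing glial cells of brain and spinal cord that respond to PDGF, migrate, and mature into the oligodendrocytes that make myelin. They are known by the PDGF receptor Pdgfra, the transcription factors Olig1, Olig2 and Sox10, and a coat of chondroitin sulphate proteoglycans such as neurocan and brevican. Microglia, the resident macrophages of the same tissue, carry receptors such as Adgre1 and Fc receptors, and when they take up debris they raise lysosomal proteins, Spp1 and Gpnmb. The 2 kinds of cell lie side by side in the tissue from which OPCs are sorted.

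The libraries were shallow. Aligned bases came to 16.3 to 52.6 megabases in the aged and 20.3 to 29.4 megabases in the neonate libraries on soft gel, and read pairs on exons outside ribosomal RNA, counted at 300 bases a pair, to 29041 to 105647 and 28070 to 55342. Ribosomal RNA took 63.9% to 76.5% of the length-scaled transcript abundance (TPM) in aged cells and 73.7% to 85.9% in neonate cells. Genes above 0 numbered 13861, 10536 and 10849 in aged replicates 1, 2 and 3, against 8157, 9629 and 7834 in neonate replicates 1, 2 and 3, and 34.3% of the tested values in these 6 libraries were 0. Olfactory receptor genes, which serve smell in the nasal epithelium, were covered at 66.9%, 39.2% and 30.8% of 1197 genes in aged replicates 1, 2 and 3, against 2.01%, 18.9% and 9.86% in neonate replicates 1, 2 and 3. Reads were thus spread more widely in aged cells, most of all in replicate 1. The replicate 1 libraries of the 3 aged groups are called the broad libraries below. Leaving them out does not even out the spread, because aged soft replicates 2 and 3 also stood above every neonate soft library. The part of this spread in the genes that follow was not tested beyond the values given.

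Aged cells on soft gel had far higher levels of a set of macrophage and lysosome genes, led by Cd68, Spp1 and Adgre1, and lower levels of some OPC genes, among them Sox10 and Ncan, and of some histone genes. The calls of Sox10 and Ncan were less firm. That of Sox10 was lost whichever of the 6 libraries was left out. That of Ncan held only when aged replicate 1 was the library left out. Levels were TPM summed per gene and divided by a factor per library, called scaled TPM. Differences are aged minus neonate on the scale of log2(scaled TPM + 1), which understates the change of low genes. Of 15144 genes tested, limma called 207 higher (1.37%) and 29 lower (0.191%) in aged cells at an adjusted p under 0.05, and 2511 passed an unadjusted p of 0.05. The median difference of all genes was 0.86. It was 0.45 without aged replicate 1 and -0.08 with the share of olfactory receptor genes covered as a covariate, so its size changed with that library and that covariate. With the genes divided into 4 equal classes by level, the median was 1.05, 1.26 and 0.90 in the 3 lower classes and 0.04 in the top class, which held 147 of the genes called higher and 26 of those called lower, or 3.88% and 0.687% of its genes. Against these shares, none or 1 call in a list is near the background and no result about that list. Tested against the median of all genes instead of 0, which was tried after the data were seen, 78 genes were higher (0.515%) and 118 lower (0.779%), so that 39.8% of the calls were higher in place of 87.7%. With quantile normalization the median difference of all genes moved to -0.01, with 186 higher and 103 lower, or 64.4%. With the share of olfactory receptor genes covered as a covariate the calls were 107 and 38, or 73.8% higher. Among the 207 genes called higher, 100 were listed at 0 in all 3 neonate libraries, and 21, or 10.1%, were olfactory receptor genes, which made up 5.26% of the genes tested. Of all 236 called genes, 77 kept the call whichever of the 6 libraries was left out. Of the 62 called genes that the rule named, 34 did so. The call was kept by 52 of these 62 without the broad libraries and by 38 with the olfactory covariate. In a fit on the 6 soft-gel libraries alone 22 of them kept it. Without the 3 broad libraries 876 genes were called, 770 higher and 106 lower, and 197 of them were among the 236. The groups did not overlap for 235 of the 236 called genes, while among all tested genes 16.05% had every aged library above every neonate library and 3.68% every aged library below.

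**Figure D1:**
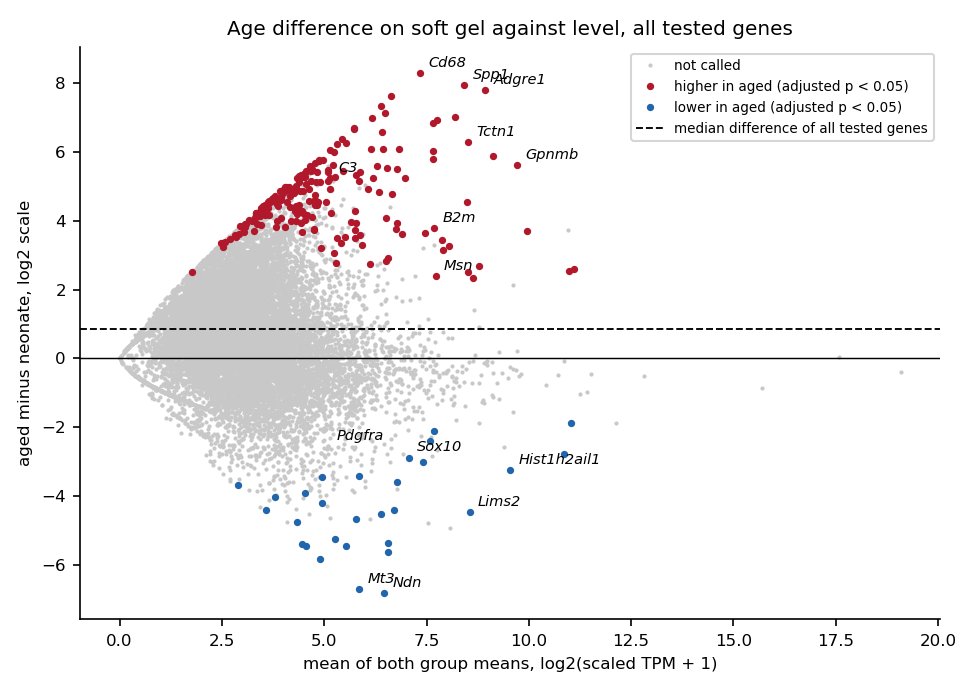
Age difference on soft gel (vertical axis, aged minus neonate on the log2 scale) against the mean level of both groups (horizontal axis, log2 of scaled TPM + 1) for 15144 tested genes. Genes called higher in aged cells are red and genes called lower are blue, and the dashed line is the median of all genes, 0.86. The cloud of low genes lies above 0 while the highest genes centre near 0.

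The largest rise was that of Cd68, a lysosomal membrane glycoprotein of macrophages (chromosome 10, 56268726 to 56270605 on rn6). Cd68 was at 234, 325 and 407 scaled TPM in aged cells but listed at 0 in all 3 neonate libraries (difference 8.30, SE 0.97, limma, adjusted p = 1.31e-05). Spp1, the secreted phosphoprotein osteopontin (chromosome 14, 6673686 to 6679921), was at 520.5, 579 and 937 in aged cells and 0, 0 and 17.6 in neonate cells (difference 7.95, SE 1.14, adjusted p = 0.000248 by limma). Adgre1, the macrophage surface receptor known as F4/80 (chromosome 9, 9431888 to 9585852), was at 686, 1404 and 829 in aged cells and 0, 2.67 and 19.03 in neonate cells (difference 7.79, SE 0.89, limma, adjusted p = 1.31e-05). Each of these genes was high in every aged library and near or at 0 in every neonate library, and the calls held with any of the 6 libraries left out. Fitted on the soft-gel libraries alone, the p of Spp1 was 0.0656 and that of Adgre1 0.0522.

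Other genes among the 15 largest rises by the rule for named genes followed the same pattern. That rule leaves out short transcripts, genes of few reads and genes whose groups overlap. Arhgdib, an inhibitor of small GTPases in blood cells, was at 226, 135 and 135 scaled TPM in aged cells but listed at 0 in neonate cells. The same held for Fcgr2a, a receptor for immunoglobulin G, at 110, 125 and 78.2 in aged cells, for Tyrobp, the signalling adaptor of myeloid receptors, at 61.4, 190 and 172, and for the phosphatase Ppm1n at 77.0, 132 and 102. All 4 were listed at 0 in the neonate libraries, with differences of 7.33, 6.69, 6.99 and 6.68 in the order named. Fabp4, a fatty acid-binding protein of adipocytes and macrophages, was at 135, 386 and 1195.5 in aged cells and 0, 27.3 and 0 in neonate cells (difference 7.03, SE 1.21). Its aged libraries differed widely among themselves, and the lowest of them stood above every neonate library, which the rule required.

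Tctn1, a protein of the base of the cilium (39790965 to 39824064 on chromosome 12), was at 483.5, 694 and 997 scaled TPM in aged cells and 4.63, 5.66 and 18.2 in neonate cells, a ratio of means of 76.4 (difference 6.28, SE 0.69, limma, adjusted p = 1.31e-05). Trpt1, an enzyme of tRNA splicing, was at 290, 549 and 350 in aged cells and 5.62, 4.61 and 0 in neonate cells. Its exons share bases with those of Fermt3 on the opposite strand, an integrin activator of blood cells, which was at 36.6, 34.9 and 48.4 in aged cells and 21.8, 23.4 and 12.2 in neonate cells. The reads of such a pair cannot be told apart, because quantification was run without a strand option. Tmem37, a membrane protein, was at 112, 66.3 and 73.6 in aged cells but listed at 0 in every neonate library. Olr318, an olfactory receptor gene, was at 76.3, 49.4 and 106 in aged cells but listed at 0 in every neonate library. The call of Olr318 was lost without any 1 library but aged replicate 2 (adjusted p from 0.0671 to 0.0846 by limma), and with the covariate for olfactory coverage (0.183), where that of Tmem37 was lost too (0.105).

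**Figure D2:**
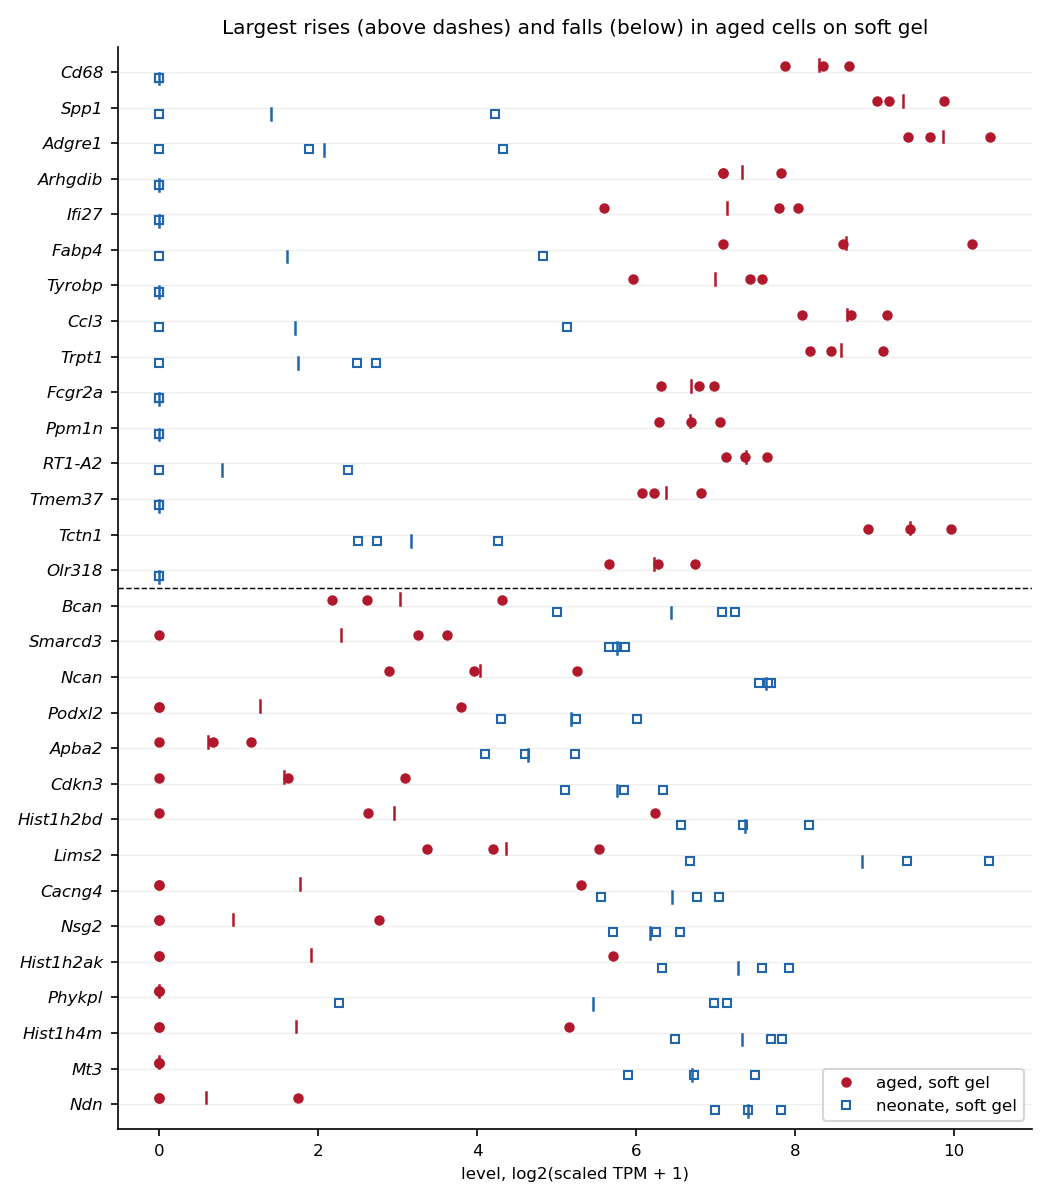
Level of each library (horizontal axis, log2 of scaled TPM + 1) for 15 genes with large rises and 15 with large falls, chosen by the rule for named genes. Red circles are aged libraries, open blue squares neonate libraries, and short lines their means. Neonate libraries sit at 0 for many of the rises, and aged libraries at 0 for many of the falls.

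The largest fall was that of Ndn, necdin, an imprinted gene known for restraining cell division in neural cells (chromosome 1, 122981755 to 122983354). Ndn was at 0, 0 and 2.34 scaled TPM in aged cells and 169, 224 and 126 in neonate cells (difference -6.83, SE 1.03, limma, adjusted p = 0.000428). Mt3, the brain metallothionein, was listed at 0 in all aged libraries and at 178, 105 and 58.5 in neonate cells (difference -6.70, SE 1.36, adjusted p = 0.00738 by limma, or 0.0573 without neonate replicate 1). Nsg2, a protein of endosomes in neurons, was at 5.78, 0 and 0 in aged cells and 75.2, 51.3 and 92.6 in neonate cells (difference -5.25, SE 0.90, limma, adjusted p = 0.00153). Ndn and Nsg2 held their calls with any library left out.

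The promoters of 5 of these genes are shown, 3 that rose furthest and 2 that fell, because genes of one cell type often share binding sites for its transcription factors. Each is 300 bases, from 250 bases before to 50 after the annotated start, read 5′ to 3′ on the gene's strand, from RefSeq on the later build GRCr8. On GRCr8 the windows are chr10:54882392-54882691 (minus strand) for Cd68, chr14:5619755-5620054 (minus strand) for Spp1, chr9:2329190-2329489 (plus strand) for Adgre1, chr1:125260809-125261108 (plus strand) for Ndn and chr16:19335657-19335956 (plus strand) for Ncan. Capitals mark the core GAGGAA of the PU box, to which PU.1 of the macrophage lineage binds, and the SOX cores ACAATG and ACAAAG, on either strand.
Cd68: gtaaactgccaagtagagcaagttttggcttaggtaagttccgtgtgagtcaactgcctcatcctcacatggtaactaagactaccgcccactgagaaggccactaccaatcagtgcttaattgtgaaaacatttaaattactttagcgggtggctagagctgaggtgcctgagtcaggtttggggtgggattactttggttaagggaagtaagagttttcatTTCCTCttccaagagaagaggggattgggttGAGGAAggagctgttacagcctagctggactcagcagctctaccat
Spp1: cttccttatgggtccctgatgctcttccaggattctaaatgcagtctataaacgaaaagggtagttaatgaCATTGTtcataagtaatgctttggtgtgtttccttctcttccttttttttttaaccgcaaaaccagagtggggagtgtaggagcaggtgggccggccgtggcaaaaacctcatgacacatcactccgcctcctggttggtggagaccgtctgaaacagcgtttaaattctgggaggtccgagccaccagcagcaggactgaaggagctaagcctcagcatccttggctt
Adgre1: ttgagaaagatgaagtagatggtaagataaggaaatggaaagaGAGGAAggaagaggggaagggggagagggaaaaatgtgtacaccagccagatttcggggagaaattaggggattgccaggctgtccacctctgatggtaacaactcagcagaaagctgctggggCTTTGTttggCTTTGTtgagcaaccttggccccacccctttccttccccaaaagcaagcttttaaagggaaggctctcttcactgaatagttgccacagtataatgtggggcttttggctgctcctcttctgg
Ndn: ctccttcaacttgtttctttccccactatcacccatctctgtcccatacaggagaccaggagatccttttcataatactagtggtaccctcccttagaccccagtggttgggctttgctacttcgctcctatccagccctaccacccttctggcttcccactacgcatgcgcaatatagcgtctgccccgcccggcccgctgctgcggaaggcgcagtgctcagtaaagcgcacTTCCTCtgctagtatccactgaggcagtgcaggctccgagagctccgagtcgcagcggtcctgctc
Ncan: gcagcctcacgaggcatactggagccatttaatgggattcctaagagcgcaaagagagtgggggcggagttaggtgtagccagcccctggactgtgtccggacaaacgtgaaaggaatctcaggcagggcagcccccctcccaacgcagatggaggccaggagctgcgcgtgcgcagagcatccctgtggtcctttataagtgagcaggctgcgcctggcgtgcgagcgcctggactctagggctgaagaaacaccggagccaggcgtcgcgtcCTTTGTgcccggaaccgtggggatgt
Cd68 holds 2 PU box cores and no SOX core, Adgre1 1 PU box core and 2 SOX cores, Spp1 1 SOX core, Ndn 1 PU box core and Ncan 1 SOX core. A promoter was listed for 133 of the 207 genes called higher and 23 of the 29 called lower. GAGGAA was present in 35.3% of the promoters of genes called higher, 30.4% of those called lower and 27.5% of all 27457 promoters. A SOX core was present in 23.3%, 17.4% and 28.6% of them. Spi1, which encodes PU.1, was at 64.2, 176 and 136 scaled TPM in aged cells and 2.56, 0 and 15.4 in neonate cells (difference 4.91, SE 0.99, limma, adjusted p = 0.00681, or 0.0764 without neonate replicate 2). These matches describe the letters of the windows and do not show binding.

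Genes listed for resting microglia were among those higher in aged cells, as were genes listed for phagocytes that have taken up material. Called members of the first list were Selplg, Irf8, Spi1, Itgam, C1qc, Tyrobp, Fcer1g, Laptm5, Lyn and Adgre1. Tmem119, P2ry12, Cx3cr1 and Csf1r were not called. All gene lists here were written with earlier results of these data known, so their counts and medians are not independent support. Lists also share called members, so their counts are not separate results. Itgam and C1qc stand in the resting microglia and complement lists, and Cd63 and Cd68 in the phagocyte and lysosome lists. Itgam and Itgb2 stand in the complement and integrin lists, and B2m in the MHC and housekeeping lists. Of 30 genes of resting microglia tested, 10 rose and 0 fell, with a median difference of 2.78 against 0.86 over all genes, and of 30 genes of activated phagocytes 9 rose and 0 fell, with a median of 3.17. The counts were 9 and 11 without the 3 broad libraries, and 6 and 7 against the median of all genes. Of the 10 and 9 genes that rose, 8 and 9 were still called without the broad libraries, and 6 and 7 against the median. Summed over the list, resting microglia genes came to 1593.5 to 2807 scaled TPM in aged cells and 173 to 202 in neonate cells. Activated phagocyte genes came to 3798 to 7938 in aged cells and 655 to 2228 in neonate cells. Neither sum overlapped between the groups. In bulk libraries, more cells of a type and more RNA of its genes per cell cannot be told apart.

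Among these genes, Fcer1g, the shared chain of Fc receptors, was at 154, 313 and 177 scaled TPM in aged cells and 0, 0 and 26.0 in neonate cells (difference 6.10, SE 1.13, limma, adjusted p = 0.00298). Selplg, the selectin ligand of leukocytes, was at 35.8, 46.9 and 61.3 in aged cells but listed at 0 in neonate cells (difference 5.58, SE 0.95, limma, adjusted p = 0.00151). Gpnmb, a glycoprotein of lysosomes and phagosomes (chromosome 4, 78694447 to 78715685), was at 958, 1781 and 2182.5 in aged cells and 21.9, 45.1 and 28.5 in neonate cells. Its ratio of means was 51.5 (difference 5.62, SE 0.66, limma, adjusted p = 1.31e-05), and the groups lay far apart. Irf8, a transcription factor of myeloid cells, was at 37.6, 47.5 and 41.3 in aged cells and 2.33, 0 and 4.66 in neonate cells (limma, adjusted p = 0.0243, lost without any 1 library but neonate replicate 3).

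Several defining genes of resting microglia were low in aged cells too. Tmem119 was at 12.8, 8.28 and 13.5 scaled TPM in aged cells and 0, 4.005 and 0 in neonate cells (limma, adjusted p = 0.204). P2ry12, a purine receptor of resting microglia, was at 7.34, 6.10 and 0 in aged cells and 2.31, 0 and 0 in neonate cells, and Cx3cr1, the fractalkine receptor, at 49.7, 0 and 0 in aged cells but listed at 0 in neonate cells. None of the 3 passed the test, and the p of P2ry12 was 0.525 and that of Cx3cr1 0.484. Csf1r, the receptor on which microglia depend, was at 30.0, 48.1 and 21.2 in aged cells and 5.73, 5.92 and 1.77 in neonate cells. Its groups did not overlap, but it did not pass (difference 2.68, SE 0.82, limma, adjusted p = 0.0993).

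Some lysosome genes were higher in aged cells, with 10 of 37 called higher and 0 lower. Their median difference was 1.93 against 0.86 over all genes. Without the broad libraries 11 were called, 9 of them among the 10. Against the median of all genes 6 were called, all among the 10. The list summed to 4884 to 5083 scaled TPM in aged cells and 1470.0 to 3215 in neonate cells. From 27.0% to 85.5% of that sum was Cst3, a protease inhibitor whose age difference was -0.08. Without Cst3 the sum was 2663, 3568 and 3363 in aged cells and 411.5, 572 and 573 in neonate cells. Lgmn, the protease legumain, was at 324, 548 and 301 in aged cells and 0, 6.28 and 24.9 in neonate cells (difference 6.04, SE 0.96, limma, adjusted p = 0.000731). The cathepsin Ctsl was at 36.8, 47.1 and 86.1 in aged cells but listed at 0 in neonate cells (adjusted p = 0.00226 by limma). Ctsk, a cathepsin of osteoclasts and macrophages, was at 16.2, 58.6 and 56.9 in aged cells and likewise listed at 0 in neonate cells (adjusted p = 0.00288 by limma). Ctsa was called as well, but it shares exon bases with Pltp, a lipid transfer protein on the opposite strand that was at 450, 497 and 346 in aged cells and 32.2, 33.4 and 52.2 in neonate cells, and the reads of the pair cannot be told apart (limma, adjusted p = 0.00077 for Pltp).

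Some genes of antigen presentation and complement were also higher. Of 21 genes of MHC and antigen processing 3 rose, with a median difference of 2.23, and of 20 complement genes 4 rose, with a median of 2.64; none fell in either list. B2m, the light chain of MHC class I (chromosome 3, 114087287 to 114093311), averaged 384 ± 77.2 scaled TPM in aged and 26.5 ± 2.67 in neonate cells (SD, n = 3 each), a ratio of 14.5 (limma, adjusted p = 0.00151). RT1-A2, a heavy chain of MHC class I, was at 165, 138 and 199.9 in aged cells and 4.18, 0 and 0 in neonate cells, and reads of its close paralogs may be shared with it. Cd74, the invariant chain of MHC class II, was at 23.3, 16.2 and 107 in aged cells but listed at 0 in neonate cells (limma, adjusted p = 0.00448). C3, the central complement protein (chromosome 9, 9721137 to 9747084), was at 45.9, 70.9 and 84.8 in aged cells and 0, 4.33 and 0 in neonate cells (difference 5.24, SE 0.84, limma, adjusted p = 0.000731). All 4 were higher in every aged library than in any neonate library.

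The other complement calls were those of the receptor chains Itgb2 and Itgam and of C1qc. Itgb2 was at 34.0, 24.9 and 60.8 scaled TPM in aged cells and 0, 0 and 1.26 in neonate cells (limma, adjusted p = 0.00329). Itgam was at 21.6, 34.3 and 56.2 in aged cells and 0, 4.15 and 0 in neonate cells, and C1qc, a chain of the first complement component, at 30.1, 96.4 and 33.0 in aged cells and 0, 7.06 and 0 in neonate cells. By limma the adjusted p was 0.0207 for Itgam and 0.0218 for C1qc. The call of Itgam was lost without aged replicate 2 or 3 or neonate replicate 1 or 3 (0.0559 to 0.122), and that of C1qc without aged replicate 2 or neonate replicate 1 or 3 (0.0901 to 0.132). C1qa was at 0, 46.5 and 13.4 in aged cells and C1qb at 4.91, 7.29 and 30.4, against 0 in every neonate library for C1qa and 0, 0 and 11.8 for C1qb, and neither passed.

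Of 32 genes of chemokines, cytokines and their receptors 6 rose and 0 fell, with a median difference of 2.09. Without the broad libraries 3 were called, 2 of them among the 6. The 6 were the chemokines Ccl3, Ccl4, Ccl6 and Cxcl2, the growth factor Tgfb1 and the chemokine receptor Cxcr5. Ccl3, which attracts macrophages (70869516 to 70871066 on chromosome 10), was at 272, 569 and 414 scaled TPM in aged cells and 0, 0 and 34.0 in neonate cells (difference 6.94, SE 0.88, limma, adjusted p = 3.41e-05). Its neighbour Ccl4, whose annotated transcript is under 300 bases, was at 197, 188 and 207 in aged cells but listed at 0 in neonate cells (limma, adjusted p = 0.00638, or 0.0732 without the broad libraries and 0.122 with the covariate). Cxcl2, which attracts neutrophils, was at 88.3, 72.2 and 23.1 in aged cells but listed at 0 in neonate cells (limma, adjusted p = 0.00883, or 0.0554 without aged replicate 1). Ccl6 was at 73.1, 55.7 and 18.5 in aged cells but listed at 0 in neonate cells, and its call (limma, adjusted p = 0.0424) was lost without any 1 of the 6 libraries (0.0536 to 0.156). Of 28 interferon response genes 1 rose, Ifi27, at 261, 221 and 47.4 in aged cells but listed at 0 in neonate cells (difference 7.14, SE 1.01, limma, adjusted p = 0.000197). The median of the interferon list was 1.41, nearer to the 0.86 of all genes.

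Sums of cell type markers differed between the groups for some cell types and overlapped for others. The summed level of 9 microglia markers was 215 to 435 scaled TPM in aged cells and 9.93 to 33.6 in neonate cells, where Cx3cr1, Aif1 and C1qa were listed at 0. That of 7 OPC markers was 262 to 415 in aged cells and 1104 to 1349 in neonate cells. None of the 7 was at 0 throughout either group, so both groups carried OPC transcripts. In aged cells these OPC markers and the 9 microglia markers summed to a like level, but the fuller lists did not. There the OPC list summed to 474 to 638, resting microglia genes to 1593.5 to 2807 and activated phagocyte genes to 3798 to 7938. Endothelial markers summed to 13.9 to 58.1 in aged cells and 0 to 6.33 in neonate cells, where Pecam1, Cldn5 and Cdh5 were at 0. Sums overlapped for markers of pericytes and fibroblasts, at 3.81 to 65.3 in aged and 0 to 6.001 in neonate cells. They overlapped for neuron markers too, at 14.8 to 40.8 and 15.5 to 20.7. The fuller list of pericyte and fibroblast genes did not overlap, at 87.2 to 193 in aged and 44.7 to 74.5 in neonate cells. Of 16 endothelial genes and 16 pericyte and fibroblast genes none was called, which is near the share of all genes. Their medians were 1.93 and 1.55, against 0.86 over all genes. Only 1 and 3 of them lay in the top class by level. Every aged library was above every neonate library for 7 and 4 of them, against 16.05% of all genes. Endothelial genes summed to 120 to 287 in aged cells and 20.4 to 41.1 in neonate cells, without overlap. Hba1, a haemoglobin gene, and Cd3e of T cells were each above 0 in aged replicate 1 alone, at 43.7 and 31.4, and Hbb and S100a8 were at 0 in all 6 libraries. Of 15 genes of blood cells 1 rose, Cd4, which macrophages of the rat also carry, at 33.4, 18.7 and 36.9 in aged cells and 2.31, 1.82 and 0 in neonate cells (limma, adjusted p = 0.0204; 0.0526 to 0.134 without aged replicate 1 or 3 or neonate replicate 2 or 3). The part of these cells in the rises above was not tested.

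Several OPC genes were lower in aged cells. Of 22 OPC genes tested 4 fell and 0 rose, with a median difference of -2.08, against 0.86 over all genes and 0.04 in the top class by level, where 19 of the 22 lay. Every aged library was below every neonate library for 13 of the 22. Their sum was 474 to 638 scaled TPM in aged cells and 1726 to 2294 in neonate cells. The calls were 6 without the broad libraries, 5 against the median of all genes and 2 with the covariate for olfactory coverage. Of the 4 genes that fell, 3, 4 and 1 were among these calls in that order. Of the transcription factors, Sox10 (chromosome 7, 120393254 to 120403523) was at 20.4, 33.3 and 38.7 in aged cells and 152, 262 and 295 in neonate cells, a ratio of means of 7.67 in favour of neonate cells (difference -2.89, SE 0.75, limma, adjusted p = 0.0439). That call was lost when any 1 library was left out (0.0641 to 0.184). Olig1 averaged 190.0 ± 37.7 in aged and 696 ± 49.2 in neonate cells and Olig2 40.9 ± 17.8 and 109 ± 15.5 (SD, n = 3 each). Neither passed (limma, adjusted p = 0.24 for Olig1 and 0.445 for Olig2), although the groups did not overlap.

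Of the matrix and receptor genes of OPCs, Ncan, the proteoglycan neurocan (21050243 to 21076707 on chromosome 16), was at 37.0, 14.6 and 6.42 scaled TPM in aged cells and 186, 207 and 201 in neonate cells (difference -3.60, SE 0.81, limma, adjusted p = 0.0188). Its 3 neonate libraries were almost equal, and each stood far above the highest aged library. Bcan, the proteoglycan brevican, was at 18.8, 3.49 and 5.12 in aged cells and 31.0, 150.4 and 134 in neonate cells (adjusted p = 0.0423 by limma). Cacng4, a subunit of AMPA receptors, was at 0, 38.5 and 0 in aged cells and 46.0, 108 and 130 in neonate cells (limma, adjusted p = 0.036). Without single libraries these calls were lost: Ncan without all but aged replicate 1 (0.0513 to 0.0804), Bcan without aged replicate 2 or 3 or neonate replicate 2 or 3 (0.0897 to 0.196), and Cacng4 without all but aged replicate 2 (0.0693 to 0.181). Pdgfra, the receptor for PDGF (chromosome 14, 35527926 to 35581031), was at 8.48, 6.25 and 12.97 in aged cells and 56.2, 64.6 and 51.9 in neonate cells. Its ratio of means was 6.23 in favour of neonate cells, yet it did not pass (difference -2.56, SE 0.91, limma, adjusted p = 0.16), and it passed without the broad libraries (0.0331) and with the covariate (0.0247). Cspg4, the proteoglycan NG2, was at 4.65, 6.37 and 26.5 in aged cells and 16.1, 30.1 and 15.02 in neonate cells, and the groups overlapped.

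Of 17 genes of committed oligodendrocytes 1 fell, Lims2, with a list median of -0.47. Lims2, an adaptor of integrin signalling used as a marker of newly forming oligodendrocytes, was at 17.4, 9.27 and 45.2 scaled TPM in aged cells and 101, 680 and 1392 in neonate cells (difference -4.48, SE 0.82, limma, adjusted p = 0.00266, or 0.0754 with the covariate). The neonate libraries thus ranged widely, with replicate 1 lowest, and the same order was seen for Gpr17, a receptor of the same stage whose gene lies within the span of Lims2 on the opposite strand. Gpr17 was at 25.7, 30.4 and 234 in aged cells and 0, 24.8 and 132 in neonate cells, and it did not pass. Bcas1, a protein of early myelinating cells, was at 6.24, 6.27 and 44.97 in aged cells and 22.9, 71.8 and 298 in neonate cells. It did not pass against 0 (limma, adjusted p = 0.14), but did against the median of all genes (0.0465).

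Myelin genes leaned the other way, with 2 of 22 called higher, none lower, and a median difference of 1.78. The 2 were Tf, transferrin, at 37.5, 27.6 and 42.9 scaled TPM in aged cells and 1.22, 0 and 0 in neonate cells, and Apod, apolipoprotein D, at 46.4, 81.7 and 322 in aged cells and 0, 10.2 and 0 in neonate cells. By limma the adjusted p was 0.0179 for Tf and 0.0214 for Apod. Both are known also outside the myelin sheath, as an iron carrier and a lipid carrier. Neither passed against the median of all genes (0.0641 for Tf and 0.0638 for Apod), and each was lost without 4 of the 6 libraries: Tf without aged replicate 1 or 3 or neonate replicate 2 or 3 (0.054 to 0.0803) and Apod without aged replicate 2 or 3 or neonate replicate 1 or 3 (0.0503 to 0.131). Of the proteins of the sheath itself, Mbp was at 71.5, 72.9 and 206 in aged cells and 7.10, 24.6 and 84.0 in neonate cells (difference 1.99, SE 1.04, limma, adjusted p = 0.33). The groups of Mbp overlapped. Mog was at 40.0, 94.2 and 139 in aged cells and 105, 84.2 and 106 in neonate cells.

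Some histone genes were lower in aged cells. Of 19 tested 3 fell and 0 rose, with a median difference of -2.31, against 0.04 in the top class by level, which held 18 of them. The median was -1.12 without the 3 broad libraries. Their sum was 877 to 1126 scaled TPM in aged cells and 2769 to 5145 in neonate cells. Hist1h2ail1, an H2A gene, was at 156, 150.1 and 103 in aged cells and 1591, 1631 and 835 in neonate cells (difference -3.26, SE 0.69, limma, adjusted p = 0.0114). Hist1h4m was at 34.6, 0 and 0 in aged cells and 206, 226 and 88.6 in neonate cells, and Hist1h2bd at 0, 74.3 and 5.17 in aged cells and 288, 93.7 and 162 in neonate cells. These genes are near-identical copies in clusters, so reads may be divided among them, and the calls of Hist1h2ail1, Hist1h4m and Hist1h2bd were lost without 2, 4 and 5 of the 6 libraries in that order, with adjusted p up to 0.0694, 0.0694 and 0.212. Without the broad libraries 2 of the list were called.

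Of 31 S phase genes and 33 G2 and M phase genes none was called by limma, which is near the 1.37% and 0.191% of all genes called higher and lower. They had median differences of -0.26 and -0.54. Mki67, a marker of dividing cells, was at 5.09, 3.70 and 11.7 scaled TPM in aged cells and 13.01, 8.41 and 5.92 in neonate cells (limma, adjusted p = 0.813), and the groups overlapped. Cdkn3, a phosphatase that acts on cyclin-dependent kinases and lies outside these lists, was at 0, 7.49 and 2.07 in aged cells and 79.7, 56.7 and 33.3 in neonate cells (limma, adjusted p = 0.0301), a call lost without all but aged replicate 2 (0.059 to 0.155). Of 21 genes of cell cycle inhibition and senescence none was called, and their median of 0.51 lay below that of all genes, a sign that changed under 5 of the alternatives. Cdkn2a was at 0, 0 and 9.31 in aged cells but listed at 0 in neonate cells, and Cdkn2b at 3.97, 13.5 and 0 in aged cells and 14.8, 11.9 and 0 in neonate cells (limma, adjusted p = 0.885 for Cdkn2b).

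Genes of protein synthesis and metabolism are mostly high, so their medians stand beside the 0.04 of the top class. Of 79 cytosolic ribosomal protein genes 1 fell, with a median difference of -0.50, and their sum was 20939 to 23615 scaled TPM in aged cells and 30487 to 36256 in neonate cells. The gene that fell was Rplp1, at 0, 119.5 and 0 in aged cells and 60.7, 138 and 176 in neonate cells (limma, adjusted p = 0.0258), the only called gene whose groups overlapped, and it was lost without aged replicate 1 or 3 or neonate replicate 2 or 3 (0.11 to 0.173). Against the median of all genes 6 ribosomal protein genes were lower. Of 62 genes of oxidative phosphorylation, 21 of glycolysis, 31 of the proteasome and 25 of cholesterol synthesis none was called, with medians of -0.35, 0.13, 0.00 and -0.87 in that order. Cholesterol synthesis genes summed to 721 to 1033 in aged cells and 1384 to 1780 in neonate cells.

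Of 21 genes of fatty acid synthesis 1 fell, with a median difference of -0.52. It was Scd2, a desaturase that makes unsaturated fatty acids (chromosome 1, 264059374 to 264072433), at 76.3, 30.8 and 87.5 scaled TPM in aged cells and 320, 368 and 264 in neonate cells. Its ratio of means was 4.89 in favour of neonate cells (difference -2.39, SE 0.54, limma, adjusted p = 0.0193), and the call was lost without aged replicate 2 or any 1 neonate library (0.0539 to 0.112). The list summed to 392 to 538 in aged cells and 1036 to 1157 in neonate cells, without overlap. Of 15 housekeeping genes 2 were called, both higher. Hprt1, a purine salvage enzyme, was at 19.6, 51.4 and 20.9 in aged cells but listed at 0 in neonate cells, although it is used by nearly all cells, so a gene listed at 0 in these files may still be used by the cells. The call of Hprt1 (limma, adjusted p = 0.036) was lost without any 1 library (0.0516 to 0.134), and the other call was B2m. The median of the housekeeping list was -0.45.

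**Figure D3:**
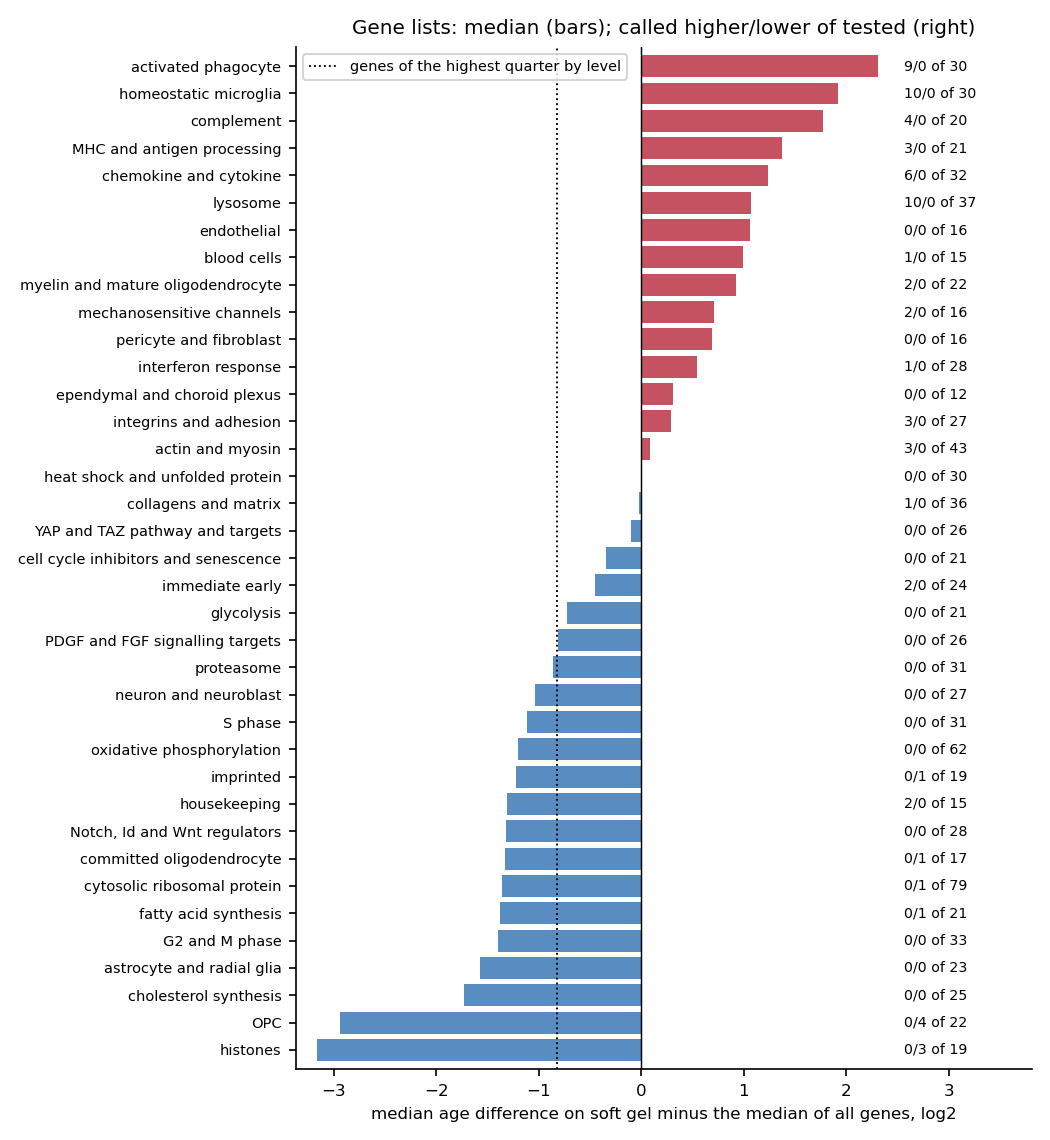
Median age difference on soft gel of each of 37 gene lists minus the median of all genes (bars, log2), with the numbers of genes called higher and lower out of those tested at the right. The dotted line is the median of the genes of the top class by level. Lists of macrophages, complement and lysosomes lie to the right, and OPC genes and histones furthest to the left.

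Lists tied to matrix and mechanics held few calls, and those of the YAP and TAZ and the matrix lists were near the shares of all genes. Of 26 YAP and TAZ pathway genes none was called by limma, with a median difference of 0.76 against 0.86 over all genes. Of 36 genes of collagens and matrix 1 rose, Mmp9, a secreted protease, at 34.4, 53.4 and 31.9 scaled TPM in aged cells but listed at 0 in neonate cells (difference 5.32, SE 1.08, limma, adjusted p = 0.00777). Of 27 genes of integrins and adhesion 3 rose, all of them chains of leukocyte integrins: Itgal, Itgam and Itgb2. Itgal was at 91.9, 209 and 112 in aged cells and 0, 0 and 6.02 in neonate cells (difference 6.09, SE 0.92, limma, adjusted p = 0.000428). Of 43 actin and myosin genes 3 rose. Among these, Rac2, a small GTPase of blood cells, was at 449, 453 and 270.0 in aged cells and 0, 10.3 and 26.7 in neonate cells (limma, adjusted p = 0.00084). Lcp1, the plastin of leukocytes, was at 24.4, 65.6 and 26.0 in aged cells and 0, 0.251 and 2.37 in neonate cells (limma, adjusted p = 0.00777, or 0.0513 to 0.0559 without aged replicate 2 or neonate replicate 1). Msn, moesin, which links actin to the membrane, averaged 356 ± 186 in aged and 63.5 ± 30.2 in neonate cells (SD, n = 3 each; limma, adjusted p = 0.0185, lost without aged replicate 2 or 3 or neonate replicate 2 or 3, 0.067 to 0.131, and 0.186 against the median of all genes).

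Of 16 genes of mechanosensitive channels 2 rose. Trpc6, a cation channel, was at 14.6, 26.3 and 24.2 scaled TPM in aged cells but listed at 0 in neonate cells (difference 4.46, SE 0.92, limma, adjusted p = 0.00883). Trpv2, a cation channel that macrophages also carry, was at 25.1, 36.2 and 37.9 in aged cells and 0, 1.25 and 3.19 in neonate cells (limma, adjusted p = 0.0428), a call lost without any 1 library (0.0735 to 0.214). Piezo1, the stretch-activated channel (chromosome 19, 55305494 to 55367353), averaged 19.2 ± 2.33 in aged and 3.15 ± 1.96 in neonate cells (SD, n = 3 each), a ratio of 6.09. A short stretch of its exons is shared with Ctu2 on the opposite strand. The groups of Piezo1 did not overlap, and the difference of 2.38 (SE 0.93) did not pass (limma, adjusted p = 0.203).

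Of 24 immediate early genes 2 rose, the stress-induced factor Atf3 and Ier5, with a list median of 0.41. Atf3 was at 23.3, 44.0 and 26.4 scaled TPM in aged cells but listed at 0 in neonate cells (limma, adjusted p = 0.0105, or 0.0569 in a fit on the soft-gel libraries alone). Ier5 averaged 83.3 ± 27.7 in aged and 6.17 ± 1.98 in neonate cells (SD, n = 3 each; limma, adjusted p = 0.0204, lost without all but aged replicate 1, 0.0534 to 0.107, and 0.105 against the median of all genes). Of 26 targets of PDGF and FGF signalling, the factors in the medium, none was called, with a median of 0.05. Of 28 Notch, Id and Wnt regulators none was called against 0, with a median of -0.46, and 4 were lower against the median of all genes, namely Id2, Hes6, Notch1 and Nrarp. Of 30 heat shock genes none was called, with a median of 0.87.

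The remaining large falls by the rule for named genes were those of single genes. Smarcd3, a chromatin remodelling subunit, was at 0, 8.55 and 11.2 scaled TPM in aged cells and 56.9, 52.8 and 49.5 in neonate cells (limma, adjusted p = 0.0193; 0.073 to 0.131 without aged replicate 1 or any 1 neonate library). Apba2, an adaptor of vesicle transport in neurons, was at 0.595, 1.22 and 0 in aged cells and 16.1, 36.4 and 23.2 in neonate cells (limma, adjusted p = 0.0406; 0.0586 to 0.181 without any 1 library). Podxl2, a sialomucin, was at 12.9, 0 and 0 in aged cells and 18.7, 63.2 and 36.9 in neonate cells (limma, adjusted p = 0.0406; 0.0716 to 0.186 without all but aged replicate 1). All 3 were lower in every aged library, which the rule required. Hist1h2ak, an H2A gene, was at 51.5, 0 and 0 in aged cells and 191, 241 and 79.1 in neonate cells (limma, adjusted p = 0.00454). Phykpl, an enzyme that shares exon bases with Hnrnpab on the opposite strand, was at 0 in aged cells and 3.77, 140.4 and 126 in neonate cells (limma, adjusted p = 0.041; 0.0719 to 0.213 without all but neonate replicate 1).

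Markers of astrocytes were not called against 0: of 23 astrocyte and radial glia genes none passed, with a median difference of -0.72, and against the median of all genes Gfap, Sox9 and Sox2 were lower. Gfap, the filament protein of astrocytes, was at 25.4, 9.61 and 0.365 scaled TPM in aged cells and 43.7, 108 and 192 in neonate cells (limma, adjusted p = 0.0805). Astrocyte markers summed to 4.005 to 85.6 in aged cells and 95.0 to 276 in neonate cells. Transcripts used as astrocyte markers were thus present in the neonate libraries, and which cells carried them was not tested. Of 27 neuron and neuroblast genes none passed, with a median of -0.18. Of 19 imprinted genes 1 fell, Ndn. Peg3, an imprinted zinc finger gene, averaged 13.6 ± 8.93 in aged and 59.2 ± 5.15 in neonate cells (SD, n = 3 each; limma, adjusted p = 0.15) and was lower against the median of all genes (0.0419). Apeg3, the antisense transcript at Peg3, named after its values were seen, averaged 512 in aged and 3181 in neonate cells (difference -2.77, limma, adjusted p = 0.00201). Without strand, reads of Apeg3 and Peg3 cannot be told apart.

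The age difference on soft gel was set beside the age differences of the other 2 settings, which share no library with it but share the estimate of the spread. On stiff gel 171 genes were higher (1.13%) and 159 lower (1.05%) in aged cells, and in primary cells 294 were higher (1.94%) and 100 lower (0.66%). Of the genes higher on soft gel, 89 were also higher on stiff gel, which is 43.0% of the soft and 52.0% of the stiff list. Of those lower on soft gel, 18 were lower on stiff gel, 62.1% of the soft and 11.3% of the stiff list. With primary cells 73 higher genes were shared, 35.3% of the soft and 24.8% of the primary list, and 11 lower genes, 37.9% and 11.0%. No gene called on soft gel was called in the opposite direction in either setting.

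Gene lists differed in how they stood in the 3 settings, given here as counts and sums with no test of the difference. Because the lists were written with earlier results known, these counts may in part restate that choice. Resting microglia genes were called higher in 10 of 30 cases on soft gel, 8 on stiff gel and 22 in primary cells, and their sum was 1593.5 to 2807 scaled TPM in aged soft, 568 to 1355 in aged stiff and 4338 to 7418 in aged primary libraries. Activated phagocyte genes were called higher in 9 of 30 cases on soft gel, 9 on stiff gel and 5 in primary cells. The OPC list had 4, 3 and 4 calls lower in that order, with 0 higher in each. Histones had 3, 9 and 6 calls lower of 19. Ribosomal protein genes had 1, 21 and 0 calls lower of 79, and the sum in aged stiff libraries was 9583 to 17072, against 20939 to 23615 in aged soft libraries. No ribosomal protein gene passed the test of the difference between the soft and stiff age differences.

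**Figure D4:**
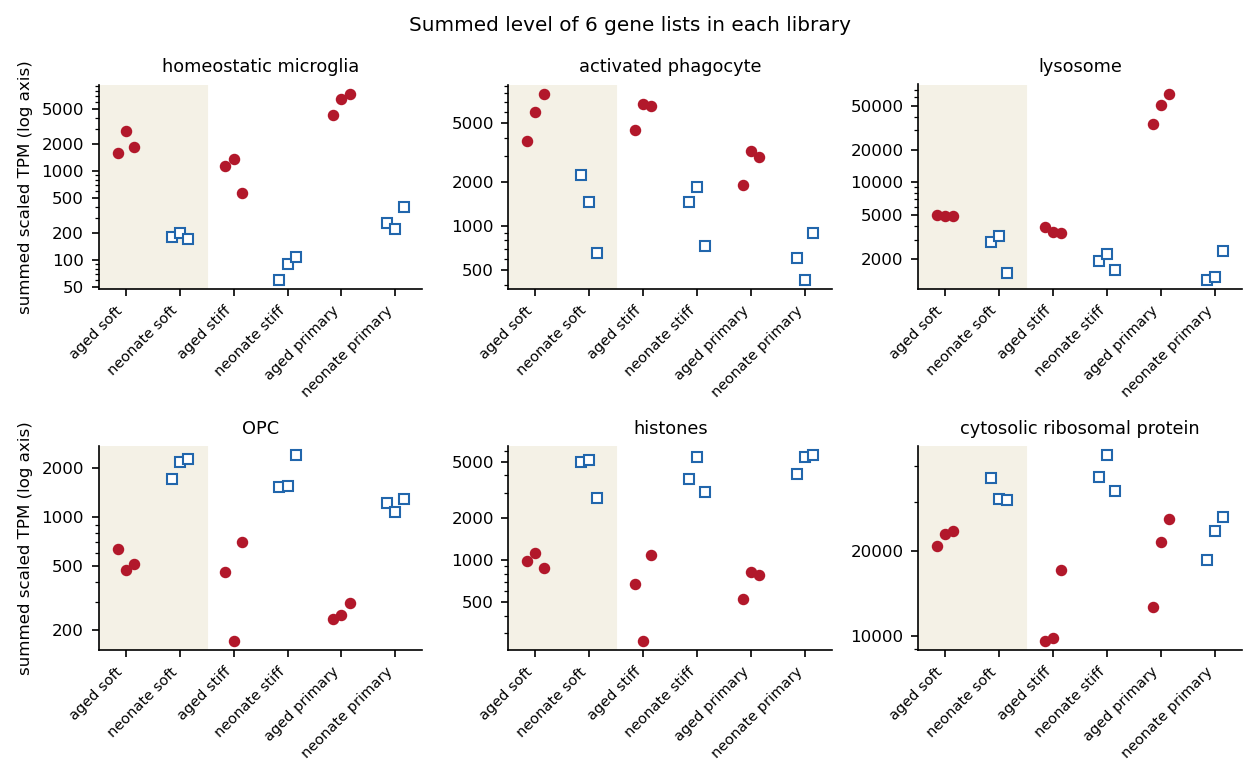
Summed scaled TPM (log axis) of 6 gene lists in each of the 18 libraries, with the soft-gel libraries shaded. Red circles are aged and open blue squares neonate libraries, drawn in the order of the replicates. On soft gel the sums of microglia, phagocyte and lysosome genes are higher in every aged library, and those of OPC, histone and ribosomal protein genes lower.

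A test of the difference between age differences called few genes. Against stiff gel 1 gene of 15144 passed (0.0066%), with 793 at an unadjusted p of 0.05, and against primary cells 2 passed (0.0132%), with 684 at an unadjusted p of 0.05. The gene against stiff gel was Dctn6, a subunit of dynactin, at 32.4, 31.2 and 29.5 scaled TPM in aged soft libraries and 28.2, 39.6 and 31.1 in neonate soft libraries, and at 0 in all 3 aged stiff libraries and 38.3, 188 and 51.6 in neonate stiff libraries. The age difference of Dctn6 was thus -0.07 on soft gel and -6.19 on stiff gel (difference of the differences 6.12, limma, adjusted p = 0.0475). On soft gel its 6 libraries were nearly equal. No gene was called higher in this test without any 1 of the 6 soft-gel libraries or without neonate stiff replicate 2.

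Against primary cells the genes were Spp1 and Cst3. Spp1 was at 0, 19.3 and 0 in aged primary libraries and 10.3, 0 and 33.4 in neonate primary libraries, so that its age difference was 7.95 on soft gel and -1.42 in primary cells (difference of the differences 9.37, limma, adjusted p = 0.0294). No gene was called higher in this test without any 1 of the 3 aged soft libraries, neonate soft replicate 1 or 2, aged primary replicate 3, or neonate primary replicate 1 or 3, so the call of Spp1 was lost there. On stiff gel Spp1 was at 1122.5, 2648 and 1223 in aged cells and 39.6, 43.9 and 32.9 in neonate cells. Cst3, the protease inhibitor cystatin C (chromosome 3, 143219675 to 143223544), was at 2419, 1319 and 1521 in aged soft libraries and 2416, 2643 and 897 in neonate soft libraries, and the groups overlapped. In primary cells Cst3 was at 30998, 45978 and 57723 in aged cells and 753, 919 and 1650 in neonate cells. The age difference was -0.08 on soft gel and 5.38 in primary cells (difference of the differences -5.46, limma, adjusted p = 2.35e-05).

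Other genes with large rises on soft gel had differing values in primary cells, without passing the test of the difference. Fabp4 was listed at 0 in all 6 primary libraries, against 137, 514 and 944 in aged stiff libraries and 15.1, 26.4 and 0 in neonate stiff libraries (adjusted p = 0.319 for soft against primary by limma). Gpnmb was at 11.9, 110 and 40.2 in aged primary libraries and 22.6, 22.7 and 15.8 in neonate primary libraries, with an age difference of 5.62 on soft gel, 5.14 on stiff gel and 0.88 in primary cells (adjusted p = 0.121 for soft against primary by limma). C3 had age differences of 5.24, 5.09 and 8.11 in the same order, and Fcgr2a 6.69, 6.43 and 5.67. Ndn had -6.83, -4.51 and -4.58, and Pdgfra -2.56, -1.80 and -4.46. Without the 3 broad libraries the test of the difference called 357 genes against stiff gel, 335 higher and 22 lower, of which 68 were olfactory receptor genes, and 383 against primary cells, 326 higher and 57 lower, of which 72 were olfactory receptor genes.

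**Figure D5:**
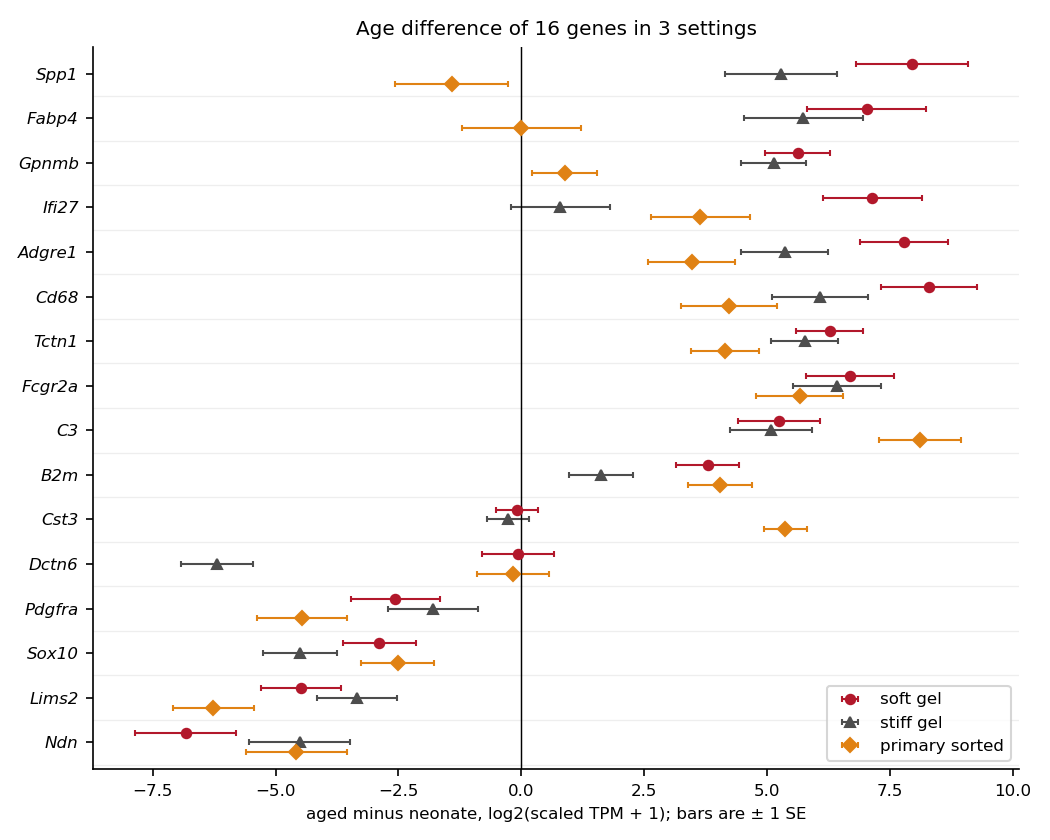
Age difference (horizontal axis, aged minus neonate on the log2 scale, bars ± 1 SE) of 16 genes on soft gel, on stiff gel and in primary sorted cells. Spp1, Cst3 and Dctn6 are the genes that passed a test of the difference between settings, and the other 13 did not.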

How the data were processed

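RNA of 18 libraries was sequenced as paired 150-base reads on a HiSeq4000, 3 libraries in each of 6 groups, after a stranded pico-input kit per the labels' protocols. The submitters' processing notes name Trimmomatic, HISAT2, StringTie and Bowtie. The deposited files hold TPM per transcript made with StringTie 1.3.2d, limited to annotated transcripts of the UCSC rn6 annotation and run without a strand option, per the file headers. Coordinates are those of the files. TPM was summed per gene identifier (18902 transcripts, 17337 genes) and divided by median-of-ratios factors over 1644 genes. Genes at TPM 1 or more in at least 3 of the 18 libraries were tested (15144) on log2(scaled TPM + 1) with limma 3.58.1 in R 4.3.3 (limma-trend, 6 group means, all 18 libraries, Benjamini-Hochberg adjustment), after a check on simulated data. The simulated libraries shared a common profile apart from the changed genes. They lacked the wider spread of reads in aged cells, so the check says nothing about that spread. The 3 contrasts were the age difference on soft gel and its difference from those on stiff gel and in primary cells. Read pairs were estimated from coverage and length at 300 bases a pair. Counts were not used, so precision is that of TPM: 1 read pair on a 2 kb transcript was worth 2.23 to 8.06 scaled TPM.

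Genes named in the text are the 15 largest rises and falls among called genes with transcripts of 300 bases or more, at least 5 estimated read pairs in the higher group and no overlap between groups, up to 4 called members of each of 37 gene lists, a few genes fixed by name, and markers or overlapping partners of these. The comparison and the gene lists were chosen with earlier results of these data known. Alternatives were pseudocount, filters, scaling, voom, weights, robust variances, the samples fitted, a replicate block and leaving out libraries. Testing against the median of all genes and the olfactory receptor covariate were chosen after seeing the data. The replicate numbers of the labels did not pair the aged with the neonate soft libraries (correlation of deviations -0.05, -0.03 and -0.02 for replicates 1, 2 and 3). Pairing of libraries of the same age between soft gel, stiff gel and primary cells was not checked. In each of the 3 aged groups replicate 1 was the broad library.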

Additional observations from a re-analysis of the deposited data

Results flagged for a closer look

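For 3 genes the age difference on soft gel differed from that in another setting by a test of the difference itself (limma, Benjamini-Hochberg adjustment). Dctn6 had an age difference of -0.07 on soft gel and -6.19 on stiff gel, a difference of 6.12 (adjusted p = 0.0475), with 0 scaled TPM in all 3 aged stiff libraries. Its call was lost whichever soft-gel library was left out. Cst3 had an age difference of -0.08 on soft gel and 5.38 in primary cells, a difference of -5.46 (adjusted p = 2.35e-05). Spp1 had an age difference of 7.95 on soft gel and -1.42 in primary cells, a difference of 9.37 (adjusted p = 0.0294). Its call was lost whichever aged soft library was left out. With quantile normalization neither test called any gene.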

How the results depend on the processing

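The count of genes called for age on soft gel was 236 in the fit reported. It was 117 with a pseudocount of 0.1, 940 with voom on estimated reads, 441 with array weights, 59 in a fit on the 6 soft-gel libraries alone, 876 without the 3 broad libraries and 145 with the olfactory covariate, and 105 to 214 without 1 library. The lowest counts came without neonate replicates 1 and 2 (105 each) and 3 (110), and it was 151 without aged replicate 1. The test against stiff gel called 1 gene, but 0 with no filter, no scaling, quantile normalization, voom, array weights, only the groups compared, testing against the median of all genes or the olfactory covariate, 357 without the broad libraries, and 0 to 6 without 1 library. The test against primary cells called 2, but 1 with a pseudocount of 0.1, no filter or only the groups compared, 0 with quantile normalization, 25 with voom, 24 with array weights, 10 with the olfactory covariate, 383 without the broad libraries, and 1 to 3 without 1 library. The cause was not tested. With a replicate block the 3 counts were 297, 1 and 2, and a pairing was checked only between aged and neonate soft libraries, where none was seen. Of the values of named genes under all alternatives, 1052 kept direction and side of the threshold, 253 lost the call, 6 gained it and 0 reversed. The medians of the immediate early, senescence, heat shock, collagen, integrin, actin, YAP and TAZ and ependymal lists, relative to all genes, changed sign under at least 1 setting. The shallow depth limits all low genes: 65 of the 207 called higher and 6 of the 29 called lower had under 5 estimated read pairs in the higher group.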
